A study of Mus musculus with 8 samples.

Results

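The eicosanoid enzymes described here are 10 genes, Alox5, Alox5ap, Alox12, Alox15, Lta4h, Ltc4s, Ptgs1, Ptgs2, Hpgds and Ptges, of 54532 Ensembl genes counted by RNA-seq in mouse bone marrow B cells. They are a pathway set chosen by 1 readout of these libraries, the OVX against Sham difference of Alox15, which the study marked as lower after ovariectomy. The values of Alox15 in OVX and Sham therefore stand as a description, without a test. The study asked how loss of ovarian estrogen alters B cells of the marrow, and ovariectomy (OVX), the surgical removal of the ovaries, served as its model of menopause. There were 3 libraries from ovariectomized mice and 3 from sham-operated mice (Sham), which had surgery with the ovaries left in place. No transgene or further treatment is given for either group. For its ovariectomies the study's methods give female mice and an age at surgery, without tying it to these libraries. Their strain, the time after surgery and whether each library came from its own mouse are not given in the sources used here. B cells were taken from marrow by magnetic sorting (MACS) and were not sorted into stages. ChIP-seq for HIF-1α and its input control were not analysed here.

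Eicosanoids are short-range lipid signals made from arachidonate, a fatty acid cut out of membranes by phospholipases. Lipoxygenases add oxygen to it and open the routes to leukotrienes, lipoxins and hydroxy fatty acids, whereas cyclooxygenases open the route to prostaglandins and thromboxane. In marrow these enzymes are best known from myeloid cells, mast cells and platelets. Leukotriene B4 attracts neutrophils, and prostaglandin E2 is a known regulator of bone turnover.

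Totals ran from 23838775 to 33136701 counts per library. Levels are given as CPM, counts scaled by library size and edgeR's TMM factors, and were not compared between genes because they are not per length. Markers of the labelled cell type were present in all libraries: all 12 B cell markers were detected and together took 0.893 to 1.03% of counts. Markers of other marrow cells were also present, with neutrophil markers at 0.257 to 0.961% of counts in Sham and 0.112 to 0.416% in OVX. In Sham replicate 3 the neutrophil list, at 0.961%, took more counts than the B cell list, at 0.893%. Such sums depend on the genes listed and are not shares of cells. Because this is bulk RNA, fewer cells of a type and less RNA per cell cannot be told apart. No gene of the 15305 that passed a filter on low counts was called, a call being an adjusted p under 0.05 and a fold of at least 1.6 (edgeR's quasi-likelihood test, Benjamini-Hochberg), so the background of calls was 0%. The lowest adjusted p was 0.811, and 574 genes had an unadjusted p under 0.05. DESeq2 and limma-voom also called 0 genes, with 204 higher and 551 lower, and 244 higher and 350 lower, at an unadjusted p under 0.05.

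Of the 10 enzyme genes, 8 passed the filter and Ltc4s and Ptges did not, and none was called. Among the 8 tested genes, 7 had a lower level in OVX and 1, Alox12, a higher one. Over all 15305 genes tested, 7934 had a log2 fold change below 0. The median log2 fold change of the 8 was -0.57, beside -0.0081 over all genes tested. Both the count and the median include Alox15, for which the set was chosen. Alox5, Alox5ap, Alox15 and Lta4h also had nearly 1 profile, with r from 0.93 to 0.99 between pairs, so they are not separate results. Of the 7 tested genes other than Alox15, 2 had an unadjusted p under 0.05, namely Alox12 and Lta4h, and the share of all genes tested with such a p was 3.75%. These 2 genes were also the ones whose groups did not overlap, with Alox12 higher in every OVX library and Lta4h lower. All genes tested gave 4.33% with every OVX library above every Sham library and 4.12% with the reverse, 8.44% in all. The enzymes fell into sets that followed different libraries: Alox5, Alox5ap and Alox15 peaked in Sham replicate 3, Hpgds and Ptgs1 in Sham replicate 2, and Alox12 in OVX replicate 3.

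**Figure D1:**
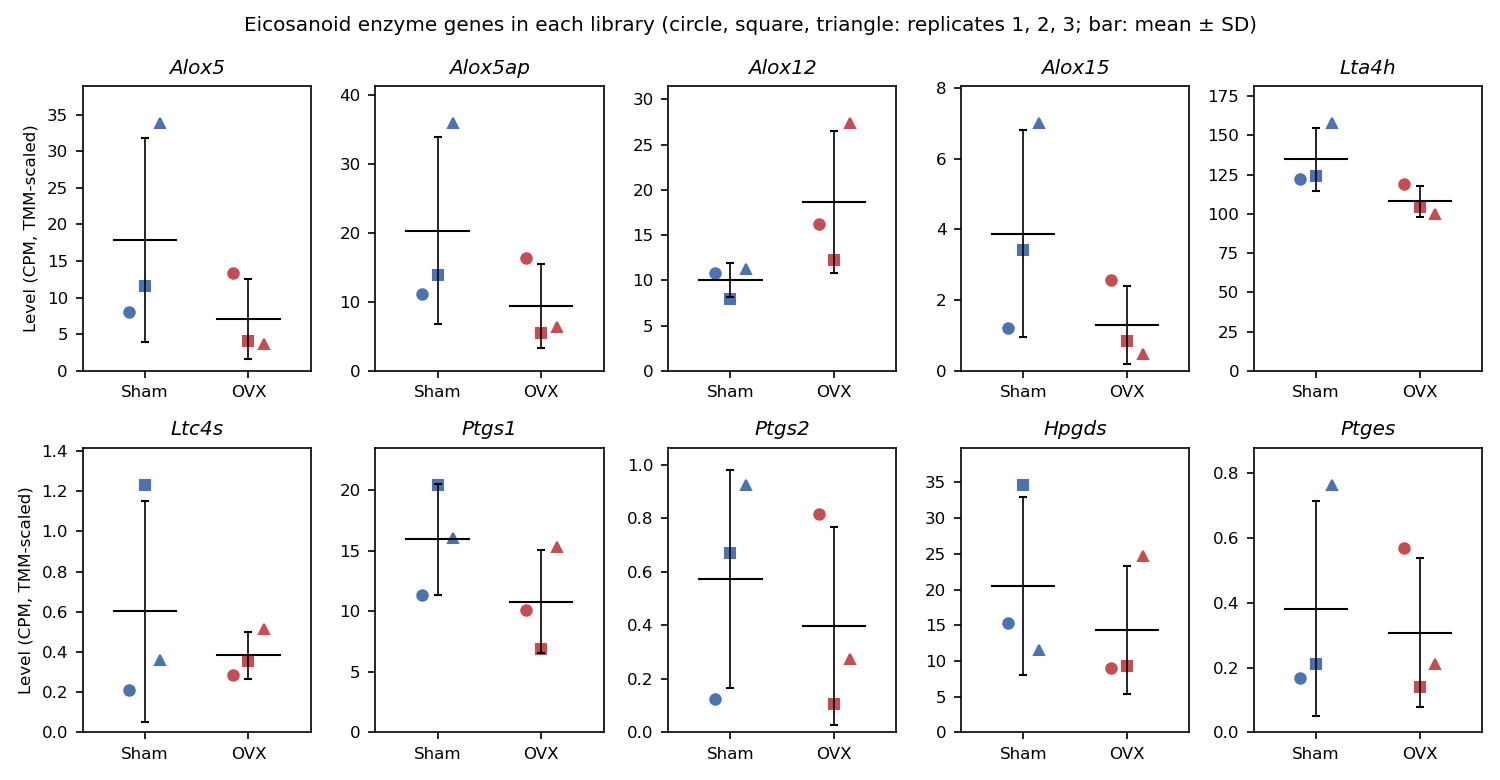
Level of each enzyme gene in CPM (vertical axis from 0, a separate scale for each gene) in the 3 Sham and 3 OVX libraries. Points are libraries, marked by replicate, and bars are the mean ± SD. Alox12 is higher in every OVX library, Lta4h is lower in every OVX library, and the groups of the other 8 genes overlap.

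Alox15 encodes the lipoxygenase that oxygenates arachidonate and linoleate and takes part in the synthesis of lipoxins, lipids linked to the end of inflammation. The gene (ENSMUSG00000018924) lies at chr11:70344147-70390538 of GRCm38.p6, and a pseudogene, Gm12312, overlaps its span. Few reads fell on it, with 29, 97 and 174 in the 3 Sham libraries, in order of replicate number, and 63, 24 and 16 in the OVX libraries. The same order of replicates is kept for all genes. The corresponding levels were 1.22, 3.42 and 7.0 CPM in Sham and 2.57, 0.847 and 0.484 CPM in OVX. The highest value was that of Sham replicate 3 and the lowest that of OVX replicate 3, but OVX replicate 1 lay above Sham replicate 1, so the groups overlapped. The mean was 3.88 ± 2.92 CPM (SD, n = 3) in Sham and 1.299 ± 1.11 CPM (SD, n = 3) in OVX, a log2 fold change of -1.599 (SE 0.77). For orientation only, 3.22% of all genes tested had a log2 fold change of -1 or lower, and 3.65% one of size 1 or more in either direction.

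The size of the Alox15 difference depended on single libraries. Leaving out Sham replicate 3 gave -0.87, and leaving out OVX replicate 1 gave -2.54. The ratio of the highest to the lowest library was 14.5.

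The 10 genes most like Alox15 over the 6 libraries, by Pearson's r of log2(CPM + 0.5), were Il17rb, Clec4d, Plscr1, Gm8066, Chil5, Ankrd12, Cdh1, Rhou, Sh2d4b and Cad, with r from 0.992 to 0.996. Such values were common, since 636 genes, or 4.16% of those compared, had an r of at least 0.9 with Alox15. All pairs share the same 6 libraries and their mixture of cells. Among the other enzymes, Alox5 had an r of 0.97 with Alox15, Alox5ap 0.95, Lta4h 0.93 and Ptgs2 0.85, while Alox12 stood at -0.57 and Hpgds at -0.09.

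The leukotriene enzymes Alox5 and Alox5ap had nearly the same profile as each other. Alox5 encodes the lipoxygenase that starts leukotriene synthesis, and Alox5ap the membrane protein that hands it arachidonate. Alox5 (ENSMUSG00000025701, chr6:116410071-116461178, minus strand, overlapping the lncRNA Gm38880) had 8.06, 11.7 and 33.8 CPM in Sham and 13.4, 4.09 and 3.69 CPM in OVX. Sham replicate 3 stood above the others, and OVX replicate 1 lay above the 2 remaining Sham libraries. The means were 17.9 ± 14.0 CPM in Sham and 7.08 ± 5.52 CPM in OVX (SD, n = 3 each), with a log2 fold change of -1.34 (SE 0.68). The groups overlapped, and the unadjusted and adjusted p were 0.0867 and 0.811 (edgeR's quasi-likelihood test, Benjamini-Hochberg). A two-sided exact permutation test, whose lowest possible p with 3 against 3 is 0.1, gave p = 0.3.

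Alox5ap (ENSMUSG00000060063, chr5:149265004-149288153) had 11.1, 13.95 and 35.9 CPM in Sham and 16.4, 5.435 and 6.39 CPM in OVX. As for Alox5, Sham replicate 3 was highest, OVX replicate 1 came second, and OVX replicates 2 and 3 were lowest. The log2 fold change was -1.12 (SE 0.56), with an adjusted p of 0.811 in edgeR's quasi-likelihood test (Benjamini-Hochberg) and an exact permutation p of 0.3. Over the 6 libraries Alox5 and Alox5ap had an r of 0.99. The log2 fold changes of Alox5 and Alox5ap were -0.50 and -0.43 once Sham replicate 3 was left out, and -2.19 and -1.78 once OVX replicate 1 was.

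Lta4h and Ltc4s act at the branch that follows. Lta4h encodes the hydrolase that makes leukotriene B4 and is used by most cell types, whereas Ltc4s encodes the synthase of the cysteinyl leukotrienes and is typical of mast cells, eosinophils and macrophages. Lta4h (ENSMUSG00000015889, chr10:93453396-93484896, plus strand) had 122, 124 and 158 CPM in Sham and 119, 105 and 100 CPM in OVX (100.1 at its lowest). Every OVX library was below every Sham library, although OVX replicate 1 was within 3 CPM of Sham replicate 1. The means were 135 ± 20.02 CPM and 108 ± 9.84 CPM (SD, n = 3 each), the log2 fold change was -0.32 (SE 0.12), and the unadjusted and adjusted p were 0.0300 and 0.811 (edgeR's quasi-likelihood test, Benjamini-Hochberg). The exact permutation p was 0.1, the smallest it can give. Leaving out Sham replicate 3 reduced the log2 fold change to -0.20.

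Ltc4s (ENSMUSG00000020377, chr11:50236461-50238532, minus strand) had 5, 35 and 9 reads in Sham and 7, 10 and 17 in OVX. Only Sham replicate 2 stood apart, the groups overlapped, and the exact permutation p was 0.8. In a fit without the filter its log2 fold change was -0.66 (SE 0.64).

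Alox12 ran against the other lipoxygenases. It encodes the lipoxygenase of platelets. The gene (ENSMUSG00000000320, chr11:70241457-70255380, minus strand, overlapping the lncRNA Gm40191) had 10.85, 7.89 and 11.3 CPM in Sham and 16.2, 12.25 and 27.4 CPM in OVX. Every OVX library was above every Sham library, and OVX replicate 3 was the highest by far. The mean was 10.01 ± 1.85 CPM in Sham and 18.6 ± 7.84 CPM in OVX (SD, n = 3 each), a log2 fold change of 0.90 (SE 0.31). The unadjusted p was 0.0209 and the adjusted p 0.811 (edgeR's quasi-likelihood test, Benjamini-Hochberg), and the exact permutation p was 0.1. Without OVX replicate 3 the log2 fold change was 0.51.

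The cyclooxygenases and the prostaglandin synthases overlapped between the groups for all 4 genes. Ptgs1 encodes the constitutive cyclooxygenase (ENSMUSG00000047250, chr2:36216742-36258593, plus strand) and had 11.3, 20.4 and 16.01 CPM in Sham and 10.1, 6.92 and 15.3 CPM in OVX. Its groups overlapped, with Sham replicate 2 highest and OVX replicate 2 lowest. The log2 fold change was -0.56 (SE 0.32), with an adjusted p of 0.811 (edgeR's quasi-likelihood test, Benjamini-Hochberg) and an exact permutation p of 0.2.

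Ptgs2 encodes the inducible cyclooxygenase (ENSMUSG00000032487, chr1:150100031-150108234, plus strand). Its reads numbered 3, 19 and 23 in Sham and 20, 3 and 9 in OVX. Each group held a library of 3 reads beside one of 20 or more, so the groups overlapped widely. The log2 fold change was -0.57 (SE 0.84), with an adjusted p of 0.87 (edgeR's quasi-likelihood test, Benjamini-Hochberg) and an exact permutation p of 0.7. Leaving out OVX replicate 1 gave -1.56, and leaving out Sham replicate 3 gave -0.08.

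Hpgds encodes the synthase that makes prostaglandin D2 in blood-derived cells (ENSMUSG00000029919, chr6:65117293-65144981, minus strand). It had 15.3, 34.7 and 11.55 CPM in Sham and 9.04, 9.32 and 24.7 CPM in OVX. Sham replicate 2 and OVX replicate 3 were high and the other 4 libraries low, so each group held both. The means were 20.5 ± 12.4 CPM and 14.4 ± 8.96 CPM (SD, n = 3 each), with a log2 fold change of -0.51 (SE 0.52), an adjusted p of 0.821 (edgeR's quasi-likelihood test, Benjamini-Hochberg) and an exact permutation p of 0.5. The value was 0.10 without Sham replicate 2 and -1.16 without OVX replicate 3.

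Ptges encodes the inducible synthase of prostaglandin E2 (ENSMUSG00000050737, chr2:30889471-30931020, minus strand, overlapping the lncRNA Gm52550 and the pseudogene Gm13400). It had 4, 6 and 19 reads in Sham and 14, 4 and 7 in OVX. The groups overlapped, the exact permutation p was 0.7, and the fit without the filter gave a log2 fold change of -0.33 (SE 0.74). The counting of reads by strand is not given in the sources used here, so reads of the overlapping genes named for Alox5, Alox12, Alox15 and Ptges could have been shared between them.

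**Figure D2:**
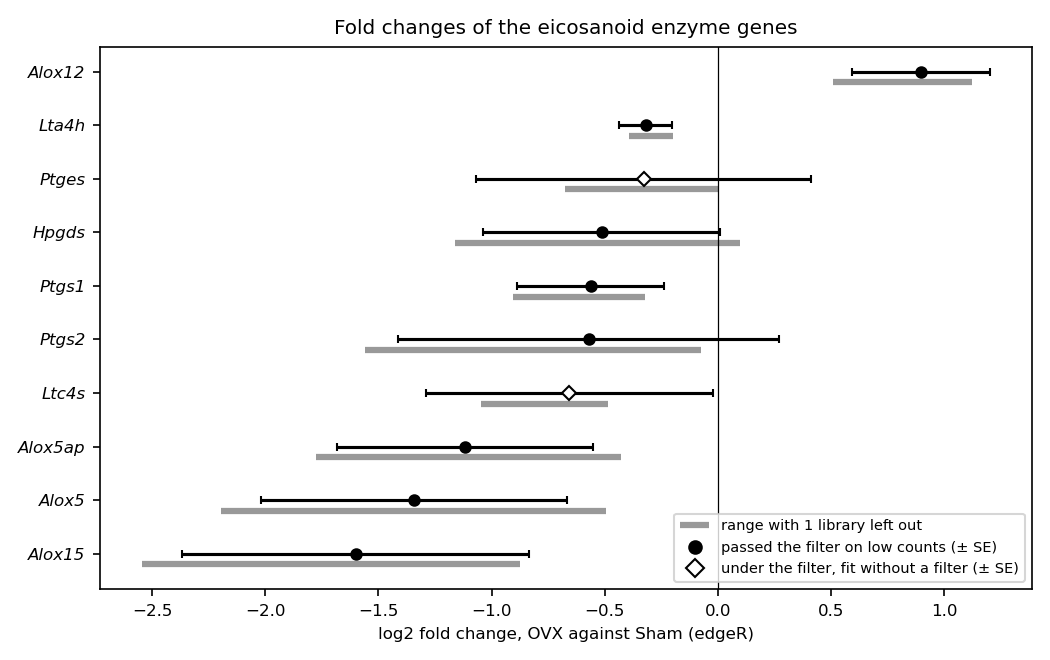
Log2 fold change of OVX against Sham for each enzyme gene (horizontal axis) with its SE. Grey bars give the range when 1 library is left out, for Ltc4s and Ptges only over the fits in which they passed the filter. Alox12 stays above 0 throughout, Alox5, Alox5ap, Alox15, Lta4h, Ltc4s, Ptgs1 and Ptgs2 stay below 0, and Hpgds and Ptges span 0.

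The levels of several enzymes moved over the libraries with markers of other marrow cells. In the comparison of OVX with Sham, the summed shares of the 11 marker lists had unadjusted exact permutation p-values between 0.2 and 0.7. S100a9, the most counted neutrophil marker, had 15801, 25523 and 61850 reads in Sham and 26902, 8334 and 10283 in OVX, and all 18 neutrophil markers were detected. Summed, they took 0.257, 0.353 and 0.961% of counts in Sham and 0.416, 0.112 and 0.121% in OVX (exact permutation p = 0.3). Sham replicate 3 was highest and OVX replicates 2 and 3 lowest, the same libraries as for Alox5 and Alox5ap. All 18 neutrophil markers had an r of at least 0.9 with Alox5, with Alox5ap and with Lta4h, against 3.79%, 3.84% and 2.89% of all genes compared. With Alox15, 17 of the 18 did.

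All 4 genes also shared their profile with markers of further cells. Of the 9 tested basophil and mast cell markers, 7 had an r of at least 0.9 with Alox5, 6 with Alox5ap and 6 with Lta4h. Of the 10 monocyte markers it was 6, 6 and 5, of the 9 eosinophil markers 5, 5 and 3, and of the 12 T and NK cell markers 6, 6 and 2. Of the 12 erythroid markers it was 4, 4 and 4, and 1 with Alox15. An r of at least 0.9 with Alox15 was held by 7 of 9 tested basophil and mast cell markers, 6 of 10 monocyte markers, 9 of 12 T and NK cell markers and 4 of 9 eosinophil markers. None of the 12 B cell markers, 12 resident macrophage markers or 11 tested megakaryocyte and platelet markers reached it. Basophil and mast cell markers took 0.00131 to 0.0103% of counts over the 6 libraries, led by Hdc, and Mcpt4, which marks mature mast cells, had 0 reads in every library, and a count of 0 allows up to 3 reads per library. Eosinophil markers took 0.00667 to 0.0160% of counts, and T and NK cell markers 0.00173 to 0.00610%. Their part in the results for Alox15, Alox5, Alox5ap and Lta4h was not tested.

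Hpgds followed a different list. The 12 resident macrophage markers, led by Vcam1, took 0.161, 0.3355 and 0.08875% of counts in Sham and 0.0832, 0.09285 and 0.2845% in OVX (exact permutation p = 0.6). Sham replicate 2 and OVX replicate 3 were high, as for Hpgds, and 10 of the 12 markers had an r of at least 0.9 with Hpgds, beside 2.38% of all genes compared. Alox12 followed the megakaryocyte and platelet markers, led by Itgb3, which took 0.0163, 0.0162 and 0.0198% of counts in Sham and 0.0245, 0.0179 and 0.0387% in OVX (exact permutation p = 0.2). OVX replicate 3 was highest for that list as for Alox12, and 7 of 11 tested markers had an r of at least 0.9 with Alox12, against 0.562% of all genes compared. So did 3 of 11 tested stroma and endothelium markers, a list that was also highest in OVX replicate 3, at 0.0310% of counts. None of the 18 neutrophil markers had an r of at least 0.9 with Ptgs1 or Ptgs2, but their median r was 0.84 with Ptgs2 and 0.44 with Ptgs1.

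**Figure D3:**
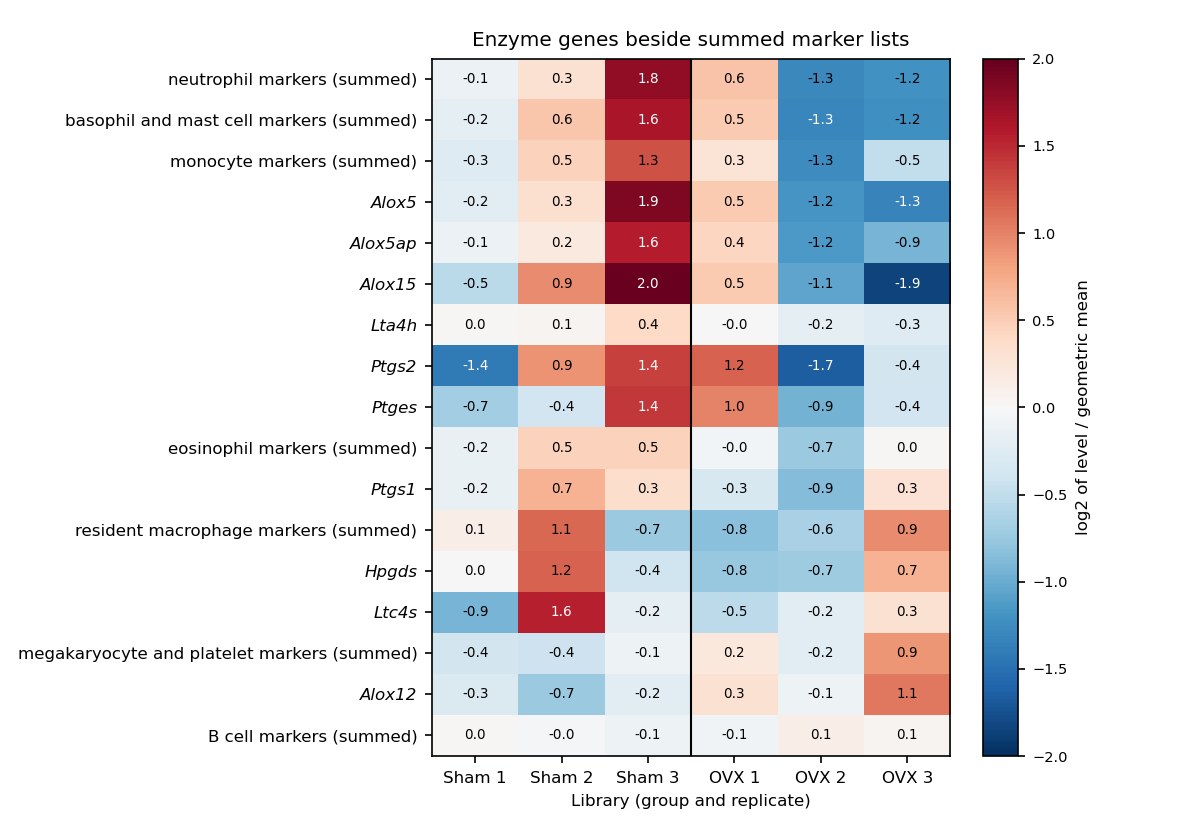
Log2 of each level over its geometric mean in the 6 libraries (colour and printed values) for the enzyme genes and for summed marker lists, both in CPM. Rows are ordered by eye so that like profiles adjoin. Alox5, Alox5ap and Alox15 share the high Sham replicate 3 of the neutrophil list, Hpgds shares the high Sham replicate 2 and OVX replicate 3 of the resident macrophage list, and Alox12 shares the high OVX replicate 3 of the megakaryocyte and platelet list.

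Counted against those markers, Alox5, Alox5ap, Alox15, Hpgds and Alox12 varied less over the libraries, and Lta4h varied more. These ratios were chosen after the data were seen. Per 1000 neutrophil marker reads, Alox5 had 3.12, 3.37 and 3.53 reads in Sham and 3.24, 3.57 and 3.05 in OVX, means of 3.34 ± 0.206 and 3.29 ± 0.264 (SD, n = 3 each). The groups overlapped, with an exact permutation p of 0.8, and the coefficient of variation over the 6 libraries was 6.45%, against 89.7% for CPM. Only 0.0262% of genes tested had as low a coefficient on this scale. Alox5ap had a coefficient of 13.2% per neutrophil marker read and 74.9% in CPM. For Lta4h the coefficient was 60.0% per neutrophil marker read and 16.8% in CPM, although its r with all 18 markers was high. Per basophil and mast cell marker read, the coefficients were 11.3% for Alox5 and 15.3% for Alox5ap.

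Alox15 per 1000 neutrophil marker reads was 0.474, 0.988 and 0.730 in Sham and 0.618, 0.739 and 0.4002 in OVX. The groups overlapped, the means were 0.731 ± 0.257 and 0.586 ± 0.172 (SD, n = 3 each), and the coefficient of variation was 32.1% against 93.75% in CPM. Per basophil and mast cell marker read it was lower, at 26.6%. Hpgds per 1000 resident macrophage marker reads was 9.48, 10.6 and 13.04 in Sham and 10.9, 9.82 and 8.66 in OVX, again overlapping, with a coefficient of 14.6% against 58.8% in CPM.

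On this scale the Alox12 groups did not overlap, by a narrow margin. Per 1000 megakaryocyte and platelet marker reads it had 66.0, 49.9 and 57.3 reads in Sham and 66.3, 67.1 and 70.4 in OVX. Every OVX library was above every Sham library, but OVX replicate 1 exceeded Sham replicate 1 by less than 1 read. The means were 57.7 ± 8.08 and 67.9 ± 2.21 (SD, n = 3 each), with an exact permutation p of 0.1, the smallest it can give. The coefficient of variation was 12.3%, against 48.5% in CPM. The ratio depends on the genes in the list, which did not move alike. Itgb3, the most counted, had 1354, 1557 and 1871 reads in Sham and 1840, 1866 and 3351 in OVX. Ppbp had 872, 944 and 1002 in Sham and 1516, 1292 and 3803 in OVX. Whether the gap holds without Itgb3, and how many of all genes show one on this scale, was not tested.

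**Figure D4:**
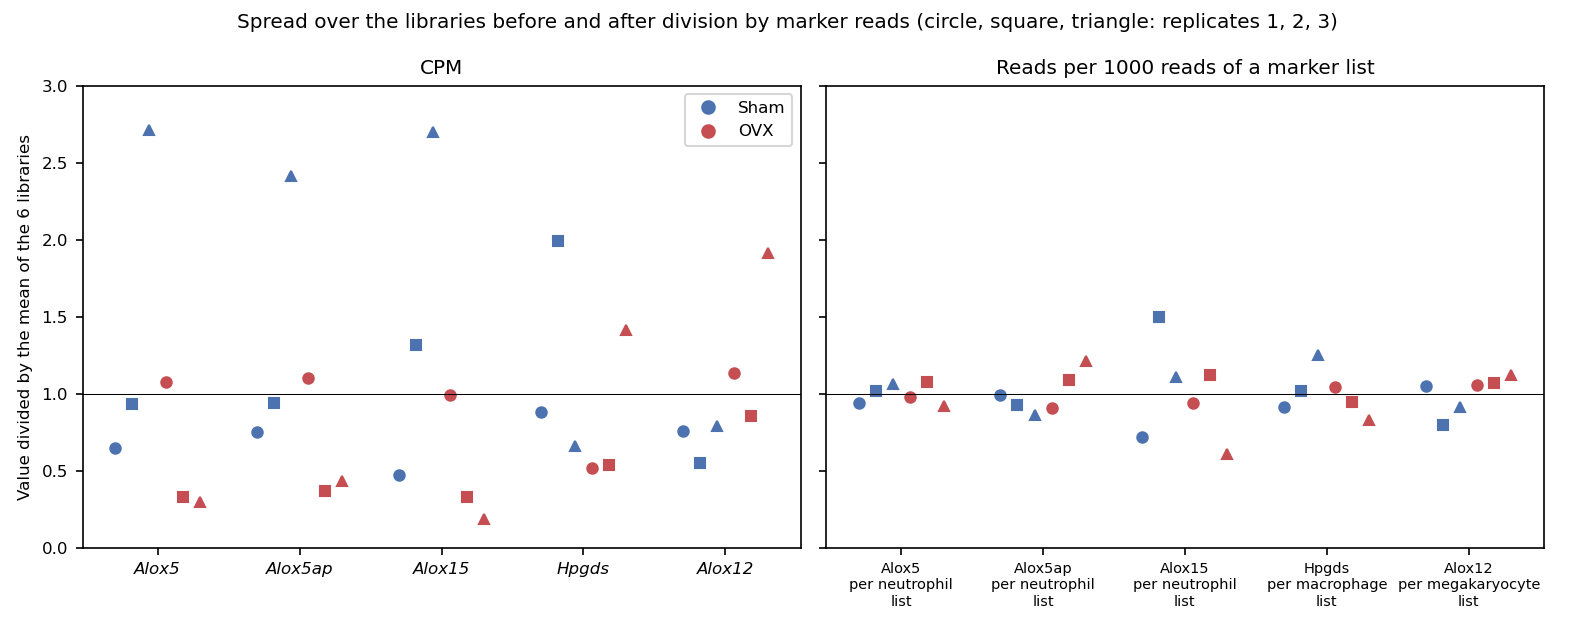
Value of 5 enzyme genes in each library divided by its mean over the 6 libraries (vertical axis), in CPM at left and as reads per 1000 reads of the named marker list at right. In CPM the points reach from below 0.5 to above 2 for Alox5, Alox5ap and Alox15, and on the right the Alox5 points lie close to 1.

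Models were also fitted with a marker share as a covariate. With the neutrophil share, the log2 fold change was -0.21 (SE 0.45) for Alox15. It was 0.02 (SE 0.18) for Alox5 and 0.02 (SE 0.16) for Alox5ap. For Lta4h it was -0.10 (SE 0.09), for Alox12 0.87 (SE 0.42) and for Hpgds -1.16 (SE 0.62). With the summed eosinophil, basophil and mast cell share it was -0.08 (SE 0.72) for Alox15 and 1.09 (SE 0.39) for Alox12. The eosinophil list in that sum did not hold a common profile. Ccr3, its most counted gene, and Ear2 were high in Sham replicate 2 and OVX replicate 3, but Epx and Prg2 in Sham replicate 3. With the resident macrophage share, added after the data were seen, the log2 fold change was -1.98 (SE 0.69) for Alox15 and -0.21 (SE 0.14) for Hpgds. With the megakaryocyte and platelet share, likewise added, it was 0.23 (SE 0.21) for Alox12. The same fit gave -1.17 (SE 0.34) for Ptgs1 and -1.26 (SE 0.71) for Hpgds, further from 0 than without a covariate. With 6 libraries, and marker shares whose means also differed between the groups, these fits cannot separate the group from the marker share. No enzyme gene was called in any of these models.

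Promoter windows, the 250 bases before and 50 after the annotated start, were at hand from RefSeq (GRCm38.p6) for 8 of the 10 genes, and not for Alox15 and Alox5ap. They were searched on both strands for ACGTG or GCGTG, the core letters bound by HIF-1, for GGGCGG, the GC box, for AGATAA or TGATAA, letters of GATA sites, and for TATAAA. The HIF core letters were found in 2 of the 8 windows, Ptgs2 and Ptges, and in 43.8% of all 32851 windows. GGGCGG was found in 4 of 8, Alox5, Alox12, Ptgs2 and Ptges, and in 35.7% of all windows. The GATA letters and TATAAA were in none of the 8, beside 18.6% and 13.6% of all windows. The 250 bases before the start are shown for Alox5 and Alox12, the lipoxygenases that followed different marker lists, and for Ptgs2, which held the HIF core letters. Capitals mark GGGCGG in all 3 sequences and GCGTG in Ptgs2.
Alox5 (chr6:116461179-116461428, minus strand, 5′ to 3′): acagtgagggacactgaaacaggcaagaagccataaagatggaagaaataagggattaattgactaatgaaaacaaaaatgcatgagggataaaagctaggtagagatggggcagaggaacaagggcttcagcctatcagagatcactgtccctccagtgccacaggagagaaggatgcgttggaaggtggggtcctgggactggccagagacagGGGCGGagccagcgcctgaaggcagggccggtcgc
Alox12 (chr11:70255371-70255620, minus strand, 5′ to 3′): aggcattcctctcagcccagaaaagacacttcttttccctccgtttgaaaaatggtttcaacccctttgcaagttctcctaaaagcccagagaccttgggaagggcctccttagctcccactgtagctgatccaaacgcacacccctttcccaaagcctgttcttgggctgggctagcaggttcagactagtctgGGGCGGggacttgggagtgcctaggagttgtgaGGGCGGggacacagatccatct
Ptgs2 (chr1:150099781-150100030, plus strand, 5′ to 3′): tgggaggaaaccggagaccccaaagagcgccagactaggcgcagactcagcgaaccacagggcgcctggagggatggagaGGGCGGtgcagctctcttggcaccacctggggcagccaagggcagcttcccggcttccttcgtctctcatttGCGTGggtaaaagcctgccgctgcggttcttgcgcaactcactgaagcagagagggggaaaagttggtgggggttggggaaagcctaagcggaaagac

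In these sequences with bases counted back from the start, GGGCGG begins at position -35 of Alox5 and at -55 and -22 of Alox12. The Ptgs2 stretch holds GGGCGG at -170 and GCGTG at -98, and a further ACGTG lies after the start, read on both strands of the same letters. A match of letters is a description of the sequence and not a bound site.

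The other genes of the pathway were described from 7 role lists of 64 genes, 45 of which passed the filter. None was called, 17 had a log2 fold change above 0 and 28 below, with a median of -0.14 beside -0.0081 over all genes tested. An unadjusted p under 0.05 was held by 3 of the 45, Pla2g12a, Ptger3 and Ptger4, beside 3.75% of all genes tested. Every OVX library was above every Sham library for 2 of the 45, Pla2g12a and Ptger4, beside 4.33% of all genes tested. The reverse held for 3 of the 45, Ptges2, Ptger1 and Ptger3, beside 4.12%. Ptger1 and Ptger3 are named after their values were seen. No read was counted in any library for Pla2g5, Alox12b, Cyp4f14, Oxgr1 or Akr1c18.

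Among the 11 tested genes of arachidonate release, 3 were above 0 and 8 below, with a median of -0.13. Acsl4, which loads arachidonate onto coenzyme A, had 93.02 ± 19.0 CPM in Sham and 105 ± 9.52 CPM in OVX (SD, n = 3 each). Pla2g12a, a secreted phospholipase, had 59.7, 41.3 and 54.7 CPM in Sham and 60.8, 69.7 and 64.5 CPM in OVX, with every OVX library above every Sham library. Its log2 fold change was 0.33 (SE 0.14), with an adjusted p of 0.811 (edgeR's quasi-likelihood test, Benjamini-Hochberg). None of the 4 other lipoxygenases passed the filter, and the most counted, Aloxe3, had between 4 and 34 reads.

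The 9 tested genes of leukotriene and peroxide handling had a median of -0.09, with 3 above 0 and 6 below. Gpx1, a glutathione peroxidase that reduces lipid hydroperoxides, had 362 ± 27.0 CPM in Sham and 340.3 ± 7.43 CPM in OVX. Mgst2, which can make leukotriene C4 outside Ltc4s-expressing cells, had a log2 fold change of -0.24 (SE 0.18). The 8 tested leukotriene and lipoxin receptors had a median of -0.35, with 3 above 0 and 5 below. Gpr132, a receptor of oxidized fatty acids, had 40.1 ± 20.2 CPM in Sham and 28.95 ± 3.996 CPM in OVX. Ltb4r1, the leukotriene B4 receptor of neutrophils, had 167, 251 and 579 reads in Sham and 239, 77 and 87 in OVX, with Sham replicate 3 highest and OVX replicates 2 and 3 lowest, as for Alox5. Its log2 fold change was -1.39 (SE 0.65), and the adjusted p was 0.811 (edgeR's quasi-likelihood test, Benjamini-Hochberg).

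On the prostaglandin side, the 6 tested terminal synthases had a median of 0.06, with 4 above 0 and 2 below. Akr1b3, an aldo-keto reductase that can make prostaglandin F2α, had 122 ± 14.1 CPM in Sham and 133 ± 7.07 CPM in OVX. Ptges2, a membrane-associated prostaglandin E synthase, was lower in every OVX library, with 14.4, 13.8 and 13.6 CPM in Sham and 11.6, 12.6 and 13.3 CPM in OVX and a log2 fold change of -0.16 (SE 0.12). The 5 tested genes of transport and breakdown had a median of -0.17, with 98.1 ± 23.1 CPM in Sham and 115 ± 6.99 CPM in OVX for Ptgr1, a prostaglandin reductase, and a log2 fold change of -0.33 (SE 0.18) for Abcc4, an exporter of prostaglandins.

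The 6 tested prostanoid receptors had a median of -0.42, with 2 above 0 and 4 below. Ptger4, the prostaglandin E2 receptor EP4, had 38.7, 31.4 and 37.6 CPM in Sham and 45.0, 48.7 and 44.95 CPM in OVX. Every OVX library was above every Sham library, with means of 35.9 ± 3.93 and 46.2 ± 2.17 CPM (SD, n = 3 each). Its log2 fold change of 0.37 (SE 0.10) had an unadjusted p of 0.00758 and an adjusted p of 0.811 (edgeR's quasi-likelihood test, Benjamini-Hochberg). Ptger3, the receptor EP3, had 13, 19 and 26 reads in Sham and 6, 6 and 12 in OVX, all OVX libraries below all Sham libraries, and a log2 fold change of -1.44 (SE 0.43).

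**Figure D5:**
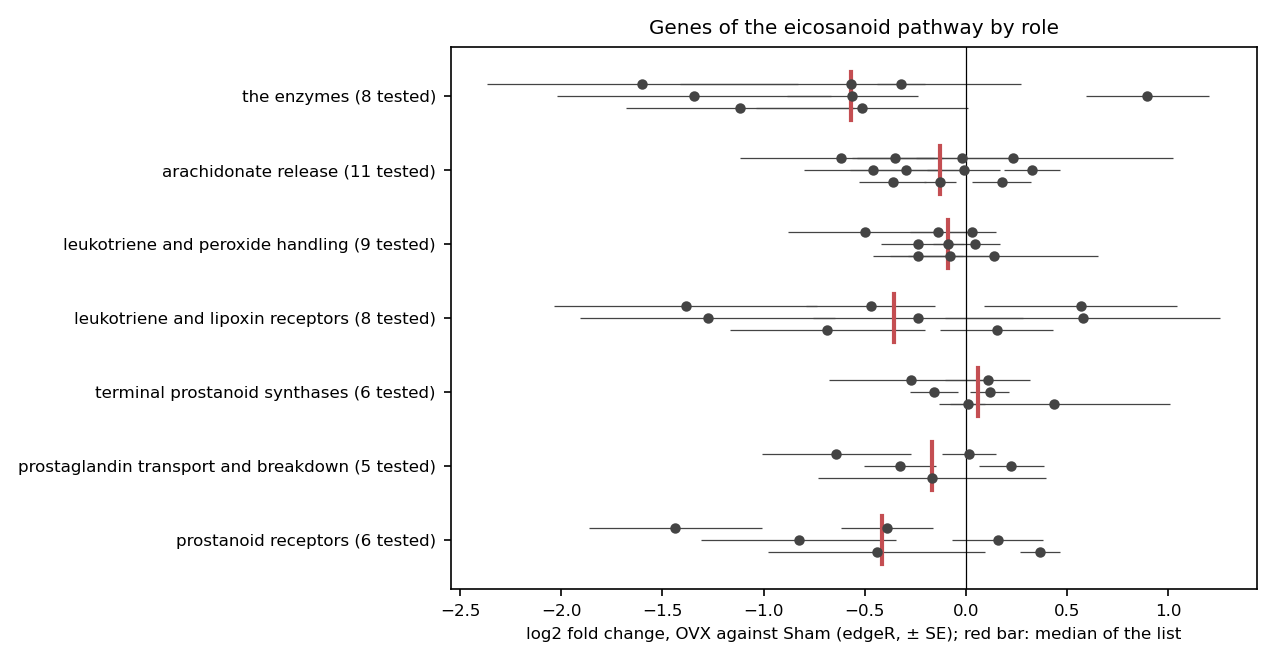
Log2 fold change of OVX against Sham (horizontal axis, ± SE) for the tested genes of each role list, with the enzymes in the top row. Points are genes and red bars are list medians. Most points lie near 0. The median of the 8 tested enzymes, at -0.57, includes Alox15, for which the set was chosen.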

How the data were processed

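The table holds raw counts of reads per Ensembl gene, as the authors deposited them, with no normalization. The submitters' processing notes name CASAVA, Bowtie 0.12.2 and mm10. The counting tool, gene annotation and strand setting are not given in the sources used here. RNA was extracted with Trizol, per the labels, and libraries were made with a TruSeq kit. Symbols were matched for 54409 of 54532 identifiers. Coordinates and promoter windows are from RefSeq GRCm38.p6, the assembly also called mm10.

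Genes with low counts were removed by group (filterByExpr), and counts were fitted in R 4.3.3 with edgeR 4.0.16 (quasi-likelihood test, TMM, Benjamini-Hochberg over all 15305 genes tested). DESeq2 1.42.0 and limma 3.58.1 gave alternatives. Levels of single genes were compared by two-sided exact permutation tests of log2(CPM + 0.5). The fits were tested on simulated data. In all, 17 other models were planned and 3 were added after the data were seen. The members, role lists and marker lists were chosen with earlier results of these data known. Named pathway genes are, in each list, the gene with the highest mean CPM and the tested gene with the lowest unadjusted p. Ptger1 and Ptger3 were named in addition, after their values were seen. The most counted marker is named for the neutrophil, basophil and mast cell, resident macrophage, megakaryocyte and platelet, and eosinophil lists only. Mcpt4 is named as the marker at 0 in every library. Ppbp, Ear2, Epx and Prg2 were named in addition, after their values were seen. Dpep2 has more than 1 identifier, and the one with most counts was kept. Every pair of libraries differed by more than sampling noise. Nothing says that libraries came from separate mice, so p-values measure the spread between libraries, which may be technical. Reads carry no molecular identifiers, so limits on a count of 0 cover counting error only.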

Additional observations from a re-analysis of the deposited data

How the results depend on the processing

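No gene, enzyme or pathway gene was called in any of the 17 planned and 3 added models, and the lowest adjusted p of a model (edgeR, DESeq2 or limma) ranged from 0.273, without Sham replicate 1, to 1. Other fold thresholds could not change this, since no adjusted p was under 0.05. Alox15 stayed below 0 and Alox12 above 0 in all 17 planned models, while Ltc4s had values in 6 and Ptges in 5. The number of enzymes other than Alox15 at an unadjusted p under 0.05, 2 as reported, was 4 with no filter, 1 with the replicate block, 0 with the neutrophil covariate, 4 with the resident macrophage covariate, 1 with the megakaryocyte covariate, 1 without Sham replicate 2 and OVX replicate 3, and 1 to 4 with 1 library left out. Over all genes, 574 such genes became 1269 with no filter, 206 with the replicate block, 153 with the neutrophil covariate, 164 with the eosinophil, basophil and mast cell covariate, 254 without Sham replicate 2 and OVX replicate 3, and 233 to 2698 with 1 library left out.

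The median log2 fold change of the tested enzymes, -0.57 as reported, was -0.0416 with the neutrophil covariate, -0.0498 with the eosinophil, basophil and mast cell covariate, -1.21 with the megakaryocyte covariate, and -1.04 to -0.31 with 1 library left out. Reversed values were 0.0214 for Alox5, 0.0219 for Alox5ap and 0.70 for Ptgs2 with the neutrophil covariate, 1.44 for Ptgs2 with the eosinophil, basophil and mast cell covariate, and 0.10 for Hpgds without Sham replicate 2 and 0.0073 for Ptges without OVX replicate 2, the upper ends of ranges from -1.16 and -0.68 with 1 library left out. The log2 difference of the resident macrophage share ranged from -0.94 to 0.12, the latter without Sham replicate 2, and that of the stroma and endothelium share from -0.0155 without OVX replicate 3 to 0.13. For these changes the cause was not tested.

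The labels do not say that a replicate number marks a shared mouse, litter or day, so the block has no basis in the labels. Same-numbered Sham and OVX libraries had correlations of deviations from their group means of -0.410, -0.189 and -0.279. These values do not settle whether libraries were paired, because the libraries also differed in their mixture of cells. Among genes at an unadjusted p under 0.05, 225 were higher and 349 lower in OVX, and scaling on B cell genes gave 53 and 483, with the median over all genes shifted by -0.08. Counts under 40 reads limit Ltc4s, Ptgs2 and Ptges.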

Other observations

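Ptgs1 had an r of at least 0.9 with 4 of 12 erythroid markers and with 1 of 9 eosinophil markers, beside 2.01% of all genes compared. Alox5, Alox5ap and Lta4h each also reached it with 4 of 12 erythroid markers. Per 1000 eosinophil marker reads it had 109.9, 130.1 and 101.6 reads in Sham and 91.2, 101.4 and 131.4 in OVX, overlapping between the groups, with a coefficient of variation of 14.8% against 36.3% in CPM. Ccr3, the chemokine receptor that gave most reads of that list, had 844, 1850 and 467 reads in Sham and 507, 622 and 2158 in OVX, high in the same libraries as Hpgds and the resident macrophage list.

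Ptgs1 and Hpgds, which act in sequence in prostaglandin D2 synthesis, had an r of 0.79 over the 6 libraries, while Ptgs2 and Hpgds had an r of 0.0096. These are descriptions over libraries that share one mixture of cells each.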
